A study of Mus musculus with 9 samples.

Results

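The angiopoietin and Tie receptor system was examined as 8 genes of the 55487 in a count table of mouse cardiac endothelial cells (MCEC), an established line from mouse heart. The genes were chosen by symbol: the ligands Angpt1, Angpt2 and Angpt4, the receptors Tek and Tie1, the receptor phosphatase Ptprb, and the angiopoietin-like genes Angptl2 and Angptl4. RNA selected for poly-A tails was sequenced in 3 groups of 3 libraries: WT, which is the unmodified line; KD, in which Zbtb46 was knocked down; and OE, in which its overexpression was enforced. Zbtb46 encodes a zinc finger transcription factor with a BTB domain. The labels do not give the means of knockdown or overexpression, whether KD and OE cells are clones or pools, or whether replicates were separate cultures, and no library from cells given a control vector was analysed here. P values therefore measure the spread between these libraries, which may be technical.

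Tek, also called TIE2, is the receptor tyrosine kinase of endothelial cells that binds the angiopoietins. Angpt1 activates it and steadies vessels, Angpt2 acts as a partial agonist or antagonist according to context, and Angpt4 is a further ligand. Tie1 is a related receptor without a well-established high-affinity angiopoietin ligand that pairs with Tek, and Ptprb, also called VE-PTP, removes phosphate from Tek. Angptl2 and Angptl4 share the domain layout of angiopoietins but do not bind Tek: Angptl2 is a secreted inflammatory factor, and Angptl4 inhibits lipoprotein lipase and is a known target of PPAR factors and of hypoxia.

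Total counts ran from 39491828 to 55745849 per library. Ribosomal RNA features took 7.438% to 17.31% of the counts of a WT library, 9.547% to 11.96% in KD and 14.41% to 18.21% in OE. Zbtb46 itself, in TMM-scaled CPM (counts relative to the library total), was 13.34, 14.37 and 13.25 CPM in WT, 11.7, 11.38 and 10.65 in KD, and 191.8, 188.6 and 193.9 in OE. It was 17.8% lower in KD than in WT and 13.99-fold higher in OE, with adjusted p of 0.00144 and 3.22e-21 by edgeR (quasi-likelihood test, Benjamini-Hochberg). Of 14 endothelial markers, 7 had enough counts to be tested. Erg had 0 counts in the 9 libraries, and Pecam1 averaged 0.0578 CPM in WT, 0.0415 in KD and 0.1496 in OE, so several defining genes of the labelled cell type were at or near 0. Of the 7 tested, 0 were higher and 6 lower in KD, and 2 were higher and 3 lower in OE. Among all genes tested, 11.0% were higher and 10.4% lower in KD at an adjusted p under 0.05, and 17.0% and 19.5% in OE. Flt1, a VEGF receptor, had log2 fold changes of -0.51 in KD and 0.35 in OE, and Ecscr, an endothelial surface protein, of -1.65 and 0.79. Kdr (-0.91 in KD and -0.58 in OE) and Egfl7 (-0.79 and -1.05) fell in both. Eng, a coreceptor for TGF-beta, fell in both (-0.20 and -0.55) and took most of the summed marker level, with 124.5 CPM in WT, 108.2 in KD and 84.9 in OE. Summed over the 14 markers, the level was 179.1 to 194.3 CPM in WT, 149.2 to 159.6 in KD and 146.4 to 160.1 in OE.

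The positions below are those of GENCODE M21 on GRCm38. Tek lies at chr4:94739289-94874976 on the plus strand, Tie1 at chr4:118471191-118490061 on the minus strand and Ptprb at chr10:116275523-116389535 on the plus strand. Angpt1 lies at chr15:42424723-42676977 and Angpt2 at chr8:18690263-18741562, both on the minus strand, and Angpt4 at chr2:151911210-151945337 on the plus strand. Angptl2 lies at chr2:33216069-33247717 on the plus strand and Angptl4 at chr17:33773750-33781830 on the minus strand. The 8 are protein-coding, and values are counts over each gene as a whole.

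Promoter sequence was found for 4 of the 8 genes, Angpt4, Tek, Tie1 and Angptl2, in the RefSeq promoter table on GRCm38.p6. For the 3 of them whose OE libraries all lay below their WT libraries, the 250 bases before the RefSeq start are shown, 5′ to 3′. They are Angpt4 at chr2:151910957-151911206, Tek at chr4:94739039-94739288 and Angptl2 at chr2:33215711-33215960, each on the plus strand. Capitals mark matches to AGGAAG, a core bound by ETS factors, which regulate many endothelial genes, or to its reverse complement CTTCCT.
Angpt4: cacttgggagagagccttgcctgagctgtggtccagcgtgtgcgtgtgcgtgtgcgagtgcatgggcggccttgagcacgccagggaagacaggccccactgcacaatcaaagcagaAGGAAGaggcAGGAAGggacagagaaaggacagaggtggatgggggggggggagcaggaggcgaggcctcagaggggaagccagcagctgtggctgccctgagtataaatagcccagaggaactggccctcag
Tek: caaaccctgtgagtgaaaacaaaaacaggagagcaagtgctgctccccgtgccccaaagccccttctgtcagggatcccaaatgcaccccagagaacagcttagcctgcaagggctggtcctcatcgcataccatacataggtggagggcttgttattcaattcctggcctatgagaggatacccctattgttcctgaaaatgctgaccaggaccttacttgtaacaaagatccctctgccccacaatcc
Angptl2: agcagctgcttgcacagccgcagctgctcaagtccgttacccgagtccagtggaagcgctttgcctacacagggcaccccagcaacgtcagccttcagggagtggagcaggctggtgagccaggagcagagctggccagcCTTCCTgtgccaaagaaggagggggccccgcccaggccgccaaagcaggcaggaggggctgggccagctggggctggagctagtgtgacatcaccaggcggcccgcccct
On both strands, the Angpt4 stretch held 2 matches to AGGAAG, 133 and 123 bases before the start, and Angptl2 held 1 on the reverse strand, 110 bases before the start. The Tek stretch held 0. Of 32851 promoters of the same length, 29.5% held the motif. The 3 stretches held 0 matches to AGATAA (bound by GATA factors, in 9.99% of promoters), TGTTTAC (forkhead factors, 3.17%) and ACGTG (the hypoxia response core, 16.6%). GC content was 62.4% for Angpt4, 51.2% for Tek and 66.8% for Angptl2, beside a median of 52.4% over the promoters, and CpG pairs numbered 7, 2 and 9 beside a median of 6. These are descriptions of letters in a window and show neither a bound site nor its absence.

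Of the 8 genes, 6 had enough counts to be tested, each above the low-count minimum of 0.21 CPM in 9 of 9 libraries, and Angpt1 and Tie1 did not. In OE the receptor Tek and the phosphatase Ptprb fell by 74.8% and 72.2% against WT, and Angptl2 by 37.2%. In KD, Ptprb rose by 76.3% and Angptl2 fell by 29.7%, while Tek was 23.2% lower without passing the test. The ligands Angpt2 and Angpt4 and the gene Angptl4 did not pass in either comparison.

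In KD against WT, 1 tested gene of the 8 rose and 1 fell at an adjusted p under 0.05, where 21.3% of the 16955 genes tested were called, 11.0% higher and 10.4% lower. The KD libraries did not overlap the WT libraries for 3 genes of the system (Ptprb, Tek and Angptl2), against 34.7% of genes tested. In OE against WT, 0 rose and 3 fell, where 36.4% of genes tested were called, 17.0% higher and 19.5% lower. Groups did not overlap for 4 genes there (Angpt4, Tek, Ptprb and Angptl2), against 45.1% of genes tested. In OE against KD, 2 genes fell and 0 rose, with a background of 41.5% called, 19.4% higher and 22.1% lower, and groups did not overlap for 2 genes against 55.4% of genes tested. A test of any difference among the 3 groups called 3 genes of the system (Tek, Ptprb and Angptl2), against 47.7% of genes tested. Both comparisons with WT use the same 3 WT libraries.

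**Figure D1:**
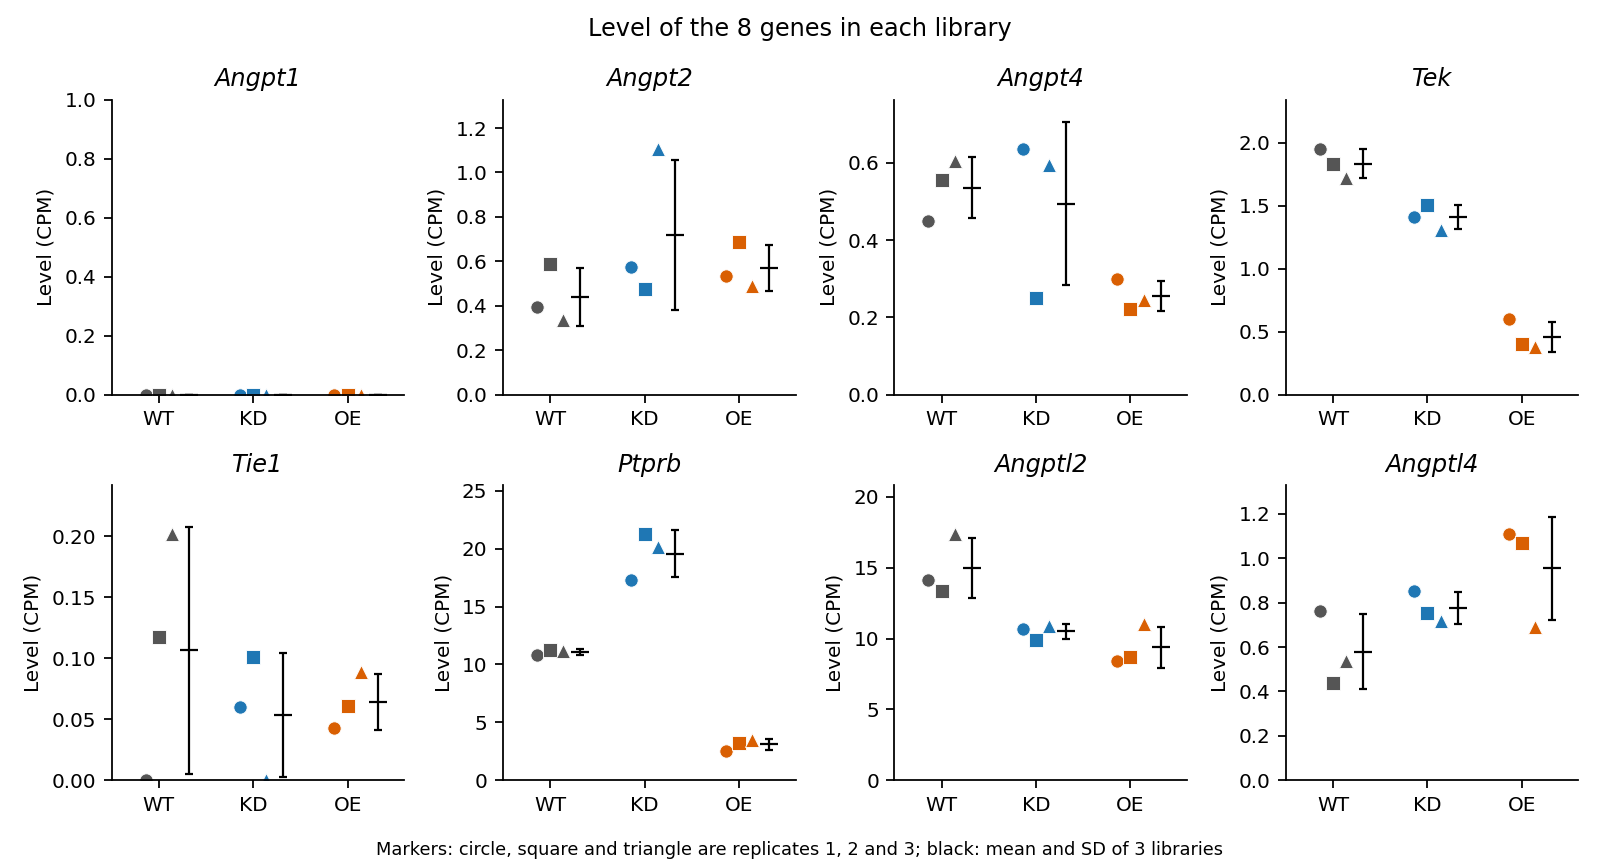
Level of each of the 8 genes (CPM, linear axis from 0) in the 9 libraries by group, with the mean and SD of 3 libraries in black. Ptprb is separate in the 3 groups, Tek is low in OE, and Angpt1 is at 0 in every library.

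Among the ligands, Angpt1 had 0 counts in each of the 9 libraries, and a count of 0 allows up to 3 counts per library. Its overlapping antisense gene Gm17473 had at most 1 count. Angpt1 mRNA was thus not detectable at this depth in any group.

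Angpt2, the ligand that endothelial cells themselves store and release, had 15, 35 and 15 counts in WT, 29, 19 and 54 in KD and 25, 34 and 22 in OE. This corresponds to 0.3955, 0.5882 and 0.3356 CPM in WT, 0.5761, 0.4772 and 1.106 in KD, and 0.5328, 0.6865 and 0.489 in OE. The groups overlapped in both comparisons with WT, and KD replicate 3 stood above the other 8 libraries. The log2 fold change was 0.70 (SE 0.392) in KD, with a 95% interval of -0.12 to 1.51 and an adjusted p of 0.24 by edgeR (quasi-likelihood test, Benjamini-Hochberg), and it ran from 0.24 without KD replicate 3 to 0.99 without WT replicate 2. In OE it was 0.35 (SE 0.399), with an interval of -0.48 to 1.18 and an adjusted p of 0.545, and it ran from 0.18 without WT replicate 3 to 0.64 without WT replicate 2. Angpt2 lies inside Mcph1 on the opposite strand with 0 shared exon bases. Mcph1 had 1490 to 2275 counts per library and a log2 fold change of 0.20 in KD (adjusted p 0.0169, edgeR) and 0.24 in OE (adjusted p 0.0024). The KD call of Mcph1 was lost without KD replicate 2 (adjusted p 0.0962) or KD replicate 3 (0.0552), by edgeR. How strand was counted is not given in the sources used here, and the part of Mcph1 reads in the few Angpt2 counts was not tested.

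Angpt4 had 17, 33 and 27 counts in WT, 32, 10 and 29 in KD and 14, 11 and 11 in OE. Its level was 0.4482, 0.5546 and 0.6041 CPM in WT, 0.6357, 0.2512 and 0.5941 in KD, and 0.2984, 0.2221 and 0.2445 in OE. Every OE library lay below every WT library, while KD replicate 2 fell within the range of OE and the other KD libraries within or above that of WT. In OE the log2 fold change was -1.07 (SE 0.437), with an interval of -1.98 to -0.16 and an adjusted p of 0.0625 by edgeR (quasi-likelihood test, Benjamini-Hochberg), which missed the threshold. The adjusted p was 0.0458 without KD replicate 2 and 0.0319 when genes needed at least 10 counts in every library. In KD the log2 fold change was -0.10 (SE 0.408), with an adjusted p of 0.903, and 0.19 without KD replicate 2.

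Tek, the angiopoietin receptor, had 74, 109 and 77 counts in WT, 71, 60 and 64 in KD and 28, 20 and 17 in OE. Its level was 1.951, 1.832 and 1.723 CPM in WT, 1.411, 1.507 and 1.311 in KD, and 0.5968, 0.4038 and 0.3779 in OE. The 3 groups did not overlap in any pair, with WT highest and OE lowest. Relative to WT, Tek was 3.97-fold lower in OE (log2 fold change -1.99, SE 0.259; adjusted p 3.12e-06 by edgeR's quasi-likelihood test). Of the genes tested, 1.64% changed by more. Against KD, OE was 3.05-fold lower, with an adjusted p of 3.81e-05 in the same edgeR test. In KD against WT the log2 fold change was -0.38 (SE 0.23), with an interval of -0.86 to 0.10 and an adjusted p of 0.278, so the separation of the libraries did not pass the test. In the 20 Mb genome window that holds Tek, the 74 tested genes had a median of 0.27 (log2 fold change, OE against WT), opposite in sign to Tek. Tek itself stood at -2.24 after the window medians were taken off.

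Tie1, the partner receptor, had 0, 7 and 9 counts in WT, 3, 4 and 0 in KD and 2, 3 and 4 in OE. Its groups overlapped, and it was too low to be tested. With no filter beyond 1 count its log2 fold change was -1.03 in KD, with an interval of -3.38 to 1.33, and -0.75 in OE, with an interval of -3.06 to 1.55. The adjusted p values were 0.683 and 0.757 by edgeR (quasi-likelihood test, Benjamini-Hochberg) over 33519 genes, and a difference of either sign was not detectable at this depth.

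Ptprb, the phosphatase that acts on Tek, showed opposite changes in KD and OE. It had 411, 671 and 498 counts in WT, 872, 846 and 984 in KD and 118, 161 and 157 in OE. Its level was 10.84, 11.28 and 11.14 CPM in WT, 17.32, 21.25 and 20.16 in KD, and 2.515, 3.251 and 3.49 in OE. Each KD library lay above each WT library and each OE library below, with no overlap. In KD, Ptprb was 1.76-fold higher, or 0.82 on the log2 scale (SE 0.103, adjusted p 6.99e-06) by edgeR (quasi-likelihood test, Benjamini-Hochberg). In OE it was 3.595-fold lower (log2 fold change -1.85, SE 0.118, adjusted p 1.03e-10), and OE was 6.34-fold lower than KD (adjusted p 1.41e-13), by the same edgeR test. Among genes tested, 4.12% were higher in KD and lower in OE with both past the threshold. The KD change did not pass against a minimum fold change of 1.5 (adjusted p 0.192). The 2 genes that overlap Ptprb had 0 counts in every library.

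Angptl2, the secreted inflammatory factor, fell in both modified groups. It had 535, 797 and 776 counts in WT, 537, 395 and 532 in KD and 394, 432 and 497 in OE. Its level was 14.11, 13.39 and 17.36 CPM in WT, 10.67, 9.921 and 10.9 in KD, and 8.397, 8.723 and 11.05 in OE. The WT libraries lay above the other 6, with WT replicate 3 highest, and KD and OE overlapped. The log2 fold change was -0.51 (SE 0.113) in KD and -0.67 (SE 0.113) in OE, with adjusted p of 0.00254 and 8.33e-05 by edgeR (quasi-likelihood test, Benjamini-Hochberg). Without WT replicate 3 the changes were -0.38 and -0.56 and still passed. Between OE and KD the difference was -0.16 (interval -0.40 to 0.08, adjusted p 0.283). Among genes tested, 3.11% were lower in both groups with both past the threshold, and neither change passed against a minimum fold change of 1.5 (adjusted p 1 in KD and 0.841 in OE). Ralgps1, on the opposite strand with 0 shared exon bases, had 590 to 1060 counts per library. Its log2 fold change was -0.15 in KD (adjusted p 0.242, edgeR), the same sign as Angptl2 and with groups that did not overlap, and 0.27 in OE (adjusted p 0.0129, edgeR), the opposite sign. The OE call was lost without WT replicate 3 (adjusted p 0.0503) or OE replicate 1 (0.102), by edgeR.

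Angptl4, the inhibitor of lipoprotein lipase, had 29, 26 and 24 counts in WT, 43, 30 and 35 in KD and 52, 53 and 31 in OE. Its level was 0.7646, 0.4369 and 0.537 CPM in WT, 0.8543, 0.7535 and 0.7171 in KD, and 1.108, 1.07 and 0.689 in OE. OE replicates 1 and 2 were the highest libraries, while OE replicate 3 lay below WT replicate 1, so the groups overlapped. The log2 fold change was 0.75 (SE 0.327) in OE, with an interval of 0.06 to 1.43 and an adjusted p of 0.0834 by edgeR (quasi-likelihood test, Benjamini-Hochberg), and 0.44 (SE 0.333, adjusted p 0.399) in KD. The KD value ran from 0.26 without WT replicate 2 to 0.68 without WT replicate 1. Angptl4 passed in OE without WT replicate 1 (0.98, adjusted p 0.0424) and without OE replicate 3 (0.93, adjusted p 0.041), by edgeR.

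**Figure D2:**
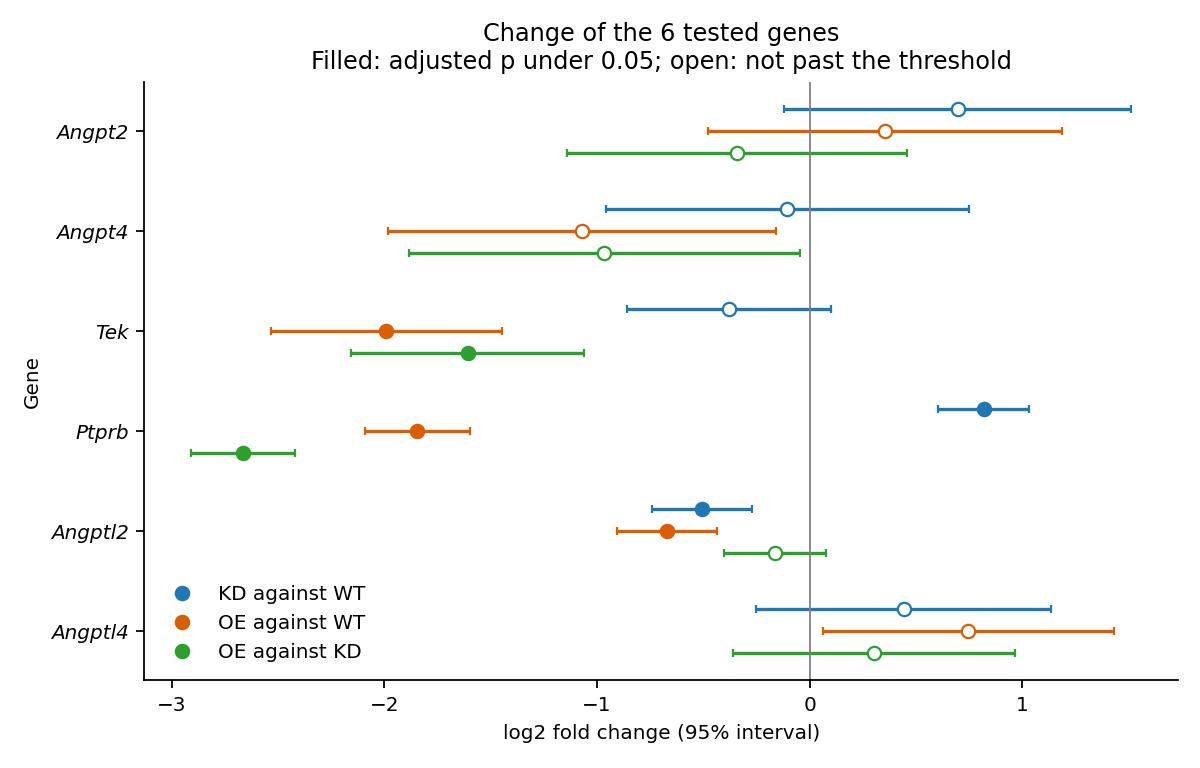
log2 fold changes with 95% intervals for the 6 tested genes in the 3 comparisons; filled points passed an adjusted p of 0.05 and open points did not. Ptprb lies on opposite sides of 0 in KD (0.82) and OE (-1.85), whereas Angptl2 lies below 0 in both (-0.51 and -0.67).

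Over the 6 tested genes the median log2 fold change was 0.17 in KD, -0.87 in OE and -0.65 between OE and KD, beside medians of -0.0022, 0.0020 and 0.0107 over all genes tested. In bulk RNA, fewer cells of a type and less RNA per cell cannot be told apart.

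Levels between genes were compared per kilobase of exon (RPKM, the CPM divided by the exon length). In WT the order was Angptl2 at 2.38 ± 0.337 (SD, n = 3), Ptprb at 0.831 ± 0.0169, Tek at 0.390 ± 0.0242, Angpt4 at 0.229 ± 0.0341, Angptl4 at 0.164 ± 0.0474, Angpt2 at 0.119 ± 0.0358, Tie1 at 0.0216 ± 0.0206 and Angpt1 at 0. Library ranges of neighbours overlapped from Angpt4 through Angpt2 and between Tie1 and Angpt1. In KD, Ptprb at 1.47 ± 0.152 overlapped Angptl2 at 1.67 ± 0.0813, and both stood above Tek at 0.299 ± 0.0208. With the longest transcript as the length, Angptl2 at 2.95 and Ptprb at 1.64 no longer overlapped in KD. In OE, Angptl2 at 1.49 ± 0.23 was followed by Angptl4 at 0.270 ± 0.0655 and Ptprb at 0.231 ± 0.0381, whose ranges overlapped. Tek at 0.0975 ± 0.0254 was then sixth, within the range shared with Angpt4 at 0.109 ± 0.0168 and below Angpt2 at 0.154 ± 0.0281.

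Ratios taken within a library do not depend on its scaling. Ptprb stood at 1.96, 2.18 and 2.29 times Tek per kilobase in WT, at 4.34, 4.98 and 5.43 times in KD and at 1.49, 2.84 and 3.26 times in OE. The KD ratios lay above both other groups, and the OE ratios spanned those of WT. By a two-sided exact permutation test of 3 against 3, whose smallest possible p is 0.1, p was 0.1 for KD against WT, 0.5 for OE against WT and 0.1 for OE against KD. Angpt2 relative to Tek was 0.249 to 0.41 in WT, 0.404 to 1.08 in KD and 1.14 to 2.17 in OE, and Angpt4 relative to Tek was 0.464 to 0.708, 0.336 to 0.914 and 1.01 to 1.31. Both ratios were higher in every OE library than in every WT and KD library (exact permutation p 0.1 for OE against WT and against KD), a design that cannot reach the 0.05 threshold. Angptl2 relative to Angptl4 was 10.4 to 18.2 in WT, 7.03 to 8.56 in KD and 4.27 to 9.03 in OE, with WT above both other groups. Over 5 ratios, with that of Angpt2 to Angpt4, 15 such tests were made, and each p of 0.1 became 0.167 after Benjamini-Hochberg adjustment (exact permutation test).

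**Figure D3:**
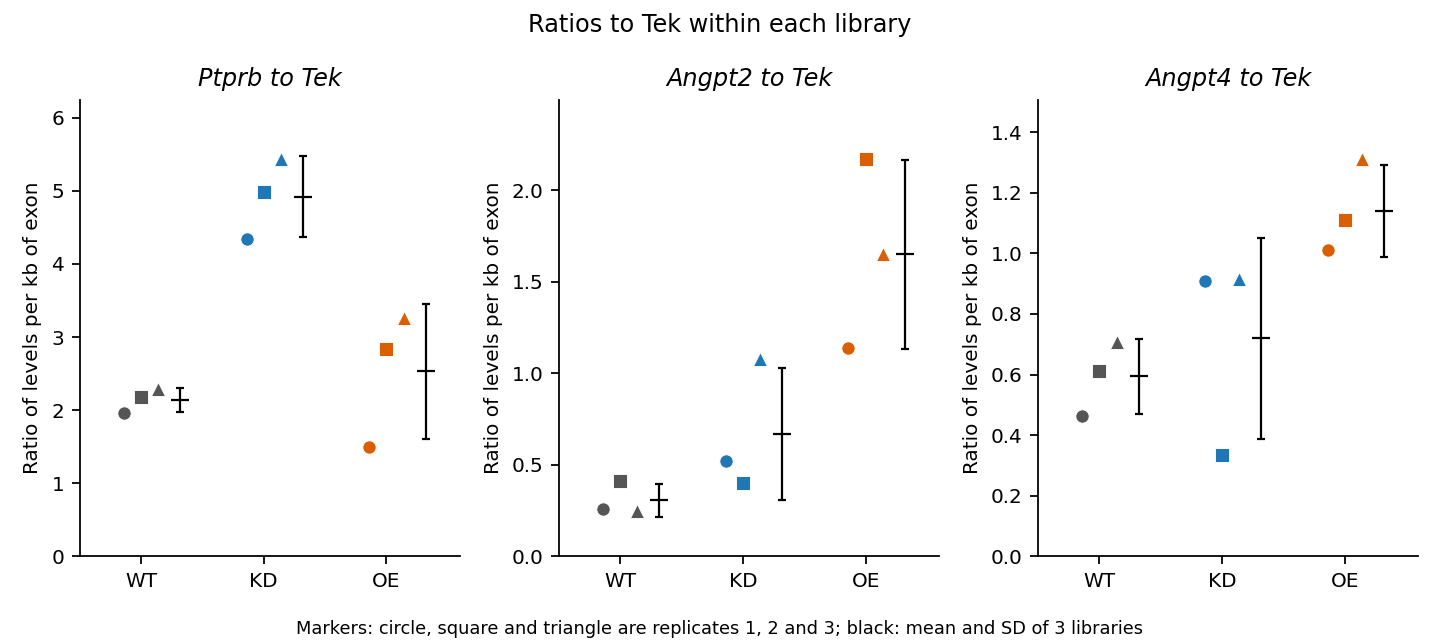
Ratio of the level per kilobase of Ptprb, Angpt2 and Angpt4 to that of Tek in each library, by group, with the mean and SD of 3 libraries in black. The Ptprb ratio is highest in KD (4.34 to 5.43), and the Angpt2 and Angpt4 ratios are highest in OE.

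By Pearson correlation of log2 CPM over the 9 libraries, the genes whose pattern was most like Tek were Dzip1 (0.995), Gramd1b (0.993) and Nipsnap1 (0.991), out of 9968 genes that averaged 5 CPM or more in some group. For Ptprb they were Cyp2s1 (0.998), Gyg (0.997) and Cyb5a (0.997), and for Angptl2 they were Pip5k1c (0.982), Got2 (0.972) and Bscl2 (0.970). For Angpt4 they were Tgfb1 (0.942), Myorg (0.927) and Atp9b (0.925). For Angptl4 they were Zfp511 (0.925), Irf2bp2 (0.918) and Dxo (0.911), and for Angpt2, C2cd5 (0.884), Cab39 (0.881) and Cnot4 (0.862). These values describe 9 libraries in 3 groups. With Spearman correlation 1 of the 3 genes remained for Tek and for Angptl2 and 0 for the other genes. Between genes of the system, Tek and Ptprb had a correlation of 0.843 and Angptl2 and Angptl4 of -0.796 over the same 9 libraries.

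Beyond the 8 genes, 116 genes in 10 lists around the system were described, of which 97 were tested. In KD 23 of these rose and 22 fell (46.4%), with a median log2 fold change of -0.014, and in OE 27 rose and 35 fell (63.9%), with a median of -0.021. When 1 library was left out at a time, the number called ran from 32 to 47 in KD and from 55 to 61 in OE. The shares of called genes were above the backgrounds of 21.3% and 36.4%. The lists were chosen with earlier results of these data known, and the background genes were not matched to them for expression level, so the shares are descriptions.

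Among Tie signalling adaptors and effectors, 4 of 24 tested genes rose and 5 fell in KD (median 0.0090), and 3 rose and 8 fell in OE (median -0.046). Pak1, a kinase downstream of the Dok-Nck adaptors, fell by 0.60 on the log2 scale in KD (9.23 to 6.121 CPM) and rose by 0.51 in OE. Pik3cb, a catalytic subunit of PI3-kinase, rose by 0.46 in KD, and Src, a kinase, fell by 0.40 there. In OE, Grb14, an adaptor of receptor kinases, fell by 0.59 and Foxo1, a forkhead transcription factor, rose by 0.30. The highest adjusted p among these 6 changes was 0.00548, for Foxo1 by edgeR (quasi-likelihood test, Benjamini-Hochberg). Foxo1 did not pass with library totals alone (0.24, adjusted p 0.0502, edgeR).

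Of 8 tested partners and shedding enzymes, 3 rose and 2 fell in KD, and 1 rose and 4 fell in OE (medians 0.015 and -0.19). Without WT replicate 3 or any 1 KD replicate 2 passed in KD, and with library totals alone 0 rose and 1 fell there. Mmp14, a membrane protease that can shed Tek, rose by 0.19 in KD (adjusted p 0.00198, edgeR), though not with library totals alone (adjusted p 0.102). In OE, Itga5, an integrin subunit that associates with Tek, rose by 0.28 and Jup, a junction protein, fell by 0.40. The adjusted p of these changes in OE was at most 8.37e-06 by edgeR. Itgb1 fell by 0.26 in OE (adjusted p 3.26e-04, edgeR), but stood at 0.18 after the window medians were taken off.

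The R3 receptor phosphatases, the family of Ptprb, moved as Ptprb did. Of 4 genes, 2 were tested, and Ptprj and Ptprq both rose in KD (log2 fold changes 0.17 and 0.55, edgeR adjusted p 0.0171 and 0.00432) and both fell in OE (-0.69 and -2.53, edgeR adjusted p 1.09e-09 and 5.02e-08). Ptprq went from 73.48 CPM in WT to 108.1 in KD and 12.79 in OE. In KD 1 of the 2 calls was lost in 4 of the 9 fits that left out a library: Ptprj on leaving out replicate 1 of WT (adjusted p 0.0911) or replicate 1 or 2 of KD (0.0569 and 0.0827), and Ptprq without WT replicate 3 (0.06), all by edgeR. With library totals alone Ptprj also missed the threshold in KD (adjusted p 0.25). Ptpro and Ptprh were near 0.

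The FOXO target list held 14 tested genes. In KD 3 rose and 3 fell, and in OE 6 rose and 6 fell, with medians of -0.10 and -0.018. Ccng2, a cyclin of arrested cells, fell by 0.70 in KD and rose by 0.63 in OE. Klf6, a zinc finger factor, rose by 0.46 in KD and fell by 0.33 in OE. Txnip, an inhibitor of thioredoxin, rose by 0.92 in OE and Sesn3, a stress-response gene, fell by 0.69. The adjusted p values of these 6 changes were at most 2.04e-04 by edgeR (quasi-likelihood test, Benjamini-Hochberg). Sesn1 fell in both groups, by 0.46 in KD and 0.30 in OE (adjusted p 7.98e-05 and 0.00183, edgeR). Irs2 rose by 0.31 in KD (adjusted p 6.77e-05, edgeR) and did not pass in OE (-0.030). The list thus moved in both directions in each comparison.

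Among 12 tested transcription factors reported at the promoters of Tek, Tie1 or angiopoietin genes, 4 rose and 3 fell in KD and 3 rose and 4 fell in OE (medians 0.029 and -0.050). The number called in KD was 3 without WT replicate 1 and 4 without KD replicate 2 or 3. Klf4, a Kruppel-like factor, rose by 0.65 in KD, and Epas1, the hypoxia factor HIF-2 alpha, fell by 0.28 in KD and rose by 0.25 in OE. Elf1, an ETS factor, fell by 0.68 in OE and Elk3, an ETS factor, rose by 0.28. Ets1 fell by 0.25 in OE, but stood at 0.14 after the window medians were taken off. The highest adjusted p among these changes was 0.00208, for Elk3 in OE by edgeR. The call of Epas1 in OE was lost with library totals alone (adjusted p 0.0851, edgeR).

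Around Angptl4, 12 hypoxia targets were tested. In OE 11 rose and 0 fell, and the list median was 0.78 on the log2 scale, beside 0.0020 over all genes tested. In KD 1 rose and 3 fell, with a median of -0.045. Bnip3, a mitophagy gene, rose by 1.49 in OE (7.501 to 21.13 CPM) and Ddit4, an inhibitor of mTORC1, by 1.11 (14.75 to 31.88 CPM). In KD, Ddit4 fell by 0.49, Slc2a1, the glucose transporter GLUT1, fell by 0.34, or by 0.19 with the medians of genome windows taken off, and Vegfa, the endothelial growth factor, rose by 0.45. The adjusted p of these 5 changes was at most 3.28e-04 by edgeR (quasi-likelihood test, Benjamini-Hochberg). Vegfa also rose in OE, by 0.40 (adjusted p 2.56e-07, edgeR). Angptl4 itself had a log2 fold change of 0.75 in OE and did not pass.

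Of 11 tested genes in the PPAR list, 1 rose and 2 fell in KD and 3 rose and 2 fell in OE (medians -0.028 and 0.14). Besides targets, the list held the PPAR factors Ppara and Ppard and their partner Rxra. Rxra was among the genes that fell in OE, by 0.29 (adjusted p 1.39e-04, edgeR). Plin2, a lipid droplet protein, rose by 0.47 in OE, and by 0.17 after the window medians were taken off. Ucp2, a mitochondrial carrier, fell by 0.48 in KD and by 0.18 in OE, or by 0.12 without WT replicate 3. Of 9 genes of lipoprotein lipase control, 4 rose and 2 fell in KD and 1 rose and 4 fell in OE (medians 0.095 and -0.16). Lpl, the enzyme that Angptl4 inhibits, fell by 0.79 in OE, from 226.4 to 131 CPM. In KD it rose by 0.20 (adjusted p 0.00482, edgeR), though not with library totals alone (adjusted p 0.0937). Sel1l, which helps lipase mature, rose by 0.57 in KD. Pcsk6, a convertase that cleaves Angptl4 family proteins and lipase, rose by 0.46 in KD and fell by 0.81 in OE. The genes of this list that fell in KD were Lipe, by 0.56, and Furin, by 0.28 (adjusted p 5.62e-05 and 1.73e-04, edgeR). Furin also fell in OE, by 0.38 (adjusted p 1.62e-06, edgeR). The changes of Plin2 and Lpl in OE, Sel1l and Ucp2 in KD, and Pcsk6 in both had adjusted p of at most 0.00179. That of Ucp2 in OE was 0.00484, all by edgeR (quasi-likelihood test, Benjamini-Hochberg).

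For Angptl2, 6 receptors and inflammatory partners were tested. In KD 2 rose and 1 fell, and in OE 1 rose and 5 fell, with medians of -0.078 and -0.35. Ccl2, a monocyte chemokine, fell by 0.42 in KD and by 0.42 in OE, as Angptl2 did in both. Mmp2, a gelatinase, fell by 0.62 in OE. Tlr4, an innate immune receptor, rose by 0.57 in KD. Among these 4 changes Ccl2 in KD had the highest adjusted p, 4.98e-04, by edgeR (quasi-likelihood test, Benjamini-Hochberg). Of 3 other angiopoietin-like genes tested, 0 rose and 1 fell in KD, and 0 rose and 1 fell in OE.

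**Figure D4:**
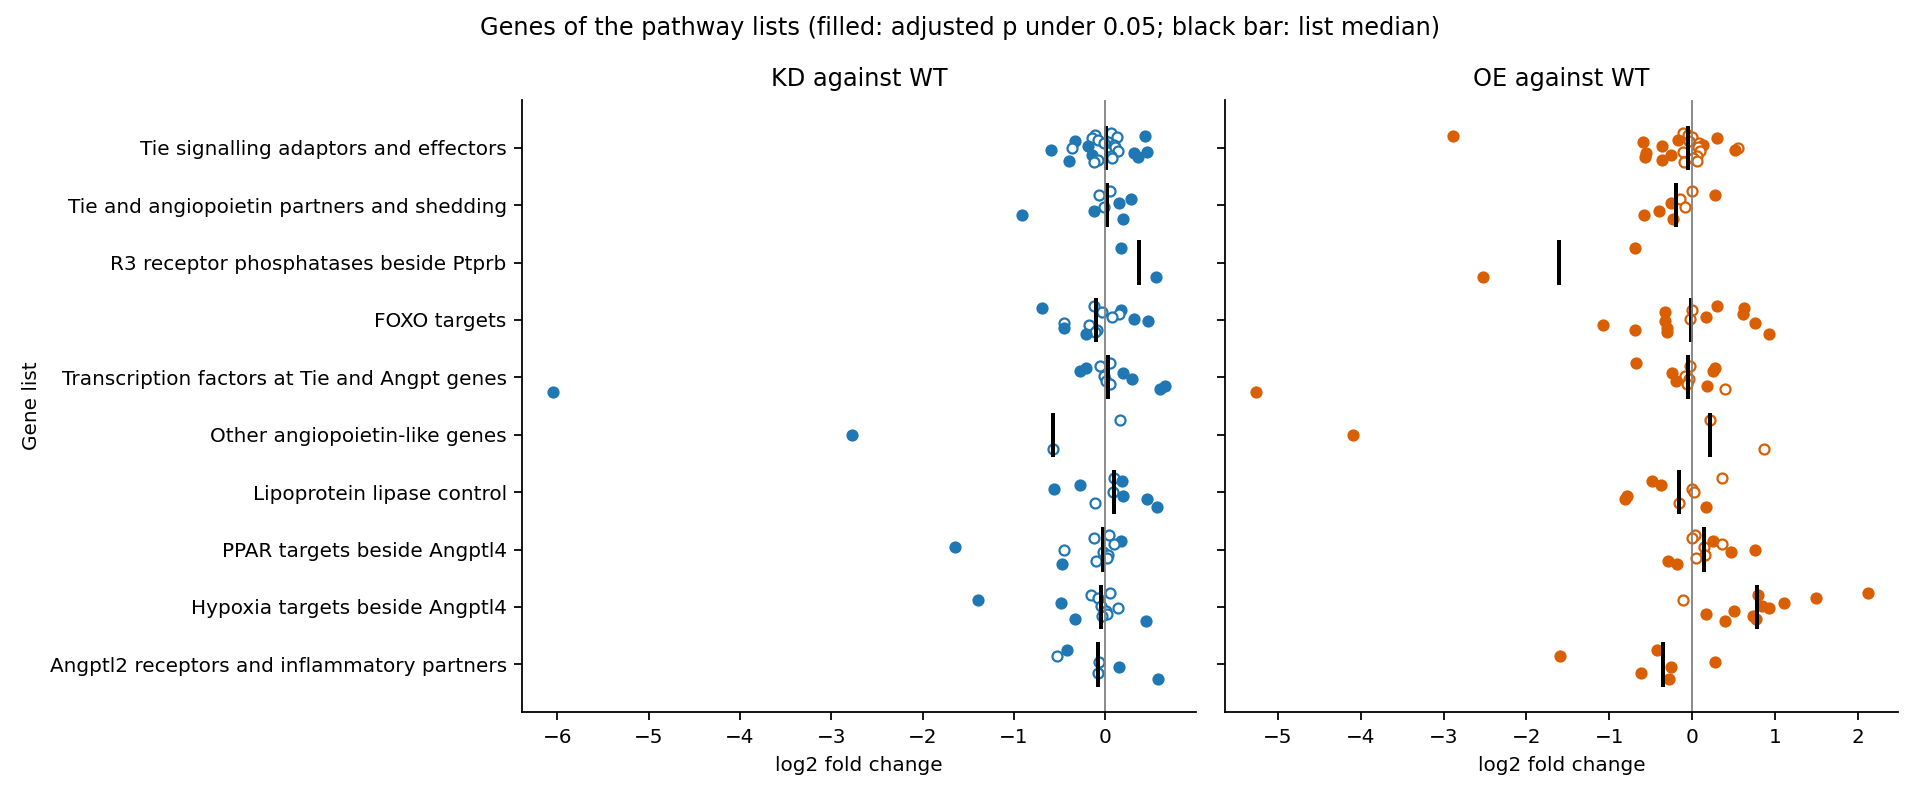
log2 fold change of each tested gene in the 10 lists, in KD and OE against WT; filled points passed an adjusted p of 0.05, and black bars are list medians. Hypoxia targets lie to the right in OE (median 0.78), and the 2 tested R3 phosphatases lie right of 0 in KD and left of 0 in OE.

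Markers of other cell types differed between groups in some lists. The 6 fibroblast genes summed to 8094 to 8959 CPM in WT, 8041 to 8168 in KD and 5074 to 5186 in OE, so that KD overlapped WT; 1 of 5 tested fell in KD and 5 of 5 in OE. Col3a1 averaged 3145 CPM in WT and 1051 in OE. Mural genes summed to 15.95 to 19.35 CPM in WT, 10.15 to 12.02 in KD and 8.335 to 9.399 in OE, with 1 of 4 tested lower in KD and 2 of 4 in OE. Acta2, which fell in both, averaged 7.735 CPM in WT, 2.798 in KD and 1.755 in OE. Rgs5, Cspg4, Kcnj8 and Abcc9 were near 0 in every group. Lymphatic genes summed to 202.3 to 207.6 CPM in WT, 202.2 to 210 in KD, which overlapped WT, and 158.6 to 163.5 in OE. Of 2 tested, 1 rose in KD and 1 fell in OE. Nearly all of this sum was Pdpn and Flt4 (88.23 and 116 CPM in WT). Prox1 and Lyve1 were near 0 (0.0088 and 0.0168 CPM in WT). Macrophage genes summed to 4.06 to 4.621, 5.183 to 5.582 and 3.156 to 4.483 CPM in WT, KD and OE, and 0 of 2 tested passed against WT in either. Most of this sum was Cd68 (means of 3.757, 4.857 and 3.399 CPM), and Ptprc, Adgre1 and Lyz2 were at or near 0. Cardiomyocyte genes, with Myh6 at 0, summed to 0.773 to 1.052, 0.6966 to 1.033 and 1.413 to 1.577 CPM, with 1 of 2 tested lower in KD and 1 higher in OE. Their part, and that of the endothelial markers, in the changes of Tek, Ptprb and Angptl2 was not tested.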

How the data were processed

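Poly-A RNA from 9 MCEC libraries, 3 each of WT, KD and OE, was sequenced from both ends, per the labels' protocols. The authors deposited whole-number counts for each gene in each library; that they are raw follows from their values. GRCm38 (mm10) is named in the submitters' processing notes, and the aligner, counting program, use of strand and annotation release are not given in the sources used here. The table has 55774 rows; 168 genes stand on several rows and were counted once, which left 55487 genes, 55141 of them with a position in GENCODE M21.

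Genes were kept with filterByExpr (16955 tested), scaled with TMM and fitted with edgeR 4.0.16 (limma 3.58.1, DESeq2 1.42.0, R 4.3.3; Python 3.11.15, pandas 2.3.3, numpy 2.4.6, matplotlib 3.10.9) in a quasi-likelihood model over the 9 libraries with group as the only term. Benjamini-Hochberg adjustment covered all genes tested, at a threshold of 0.05. The SE is the size of the log2 fold change divided by the square root of its F, and intervals use the model's degrees of freedom. The procedure was tested on simulated data. The members and gene lists were chosen with earlier results of these data known. List genes are named by a rule: up to 2 that rose and 2 that fell most in each list and comparison with WT, past the threshold, without overlap and averaging 5 CPM or more in some group. Of 29 such genes in KD and 28 in OE, 21 and 27 kept their call without each library in turn; the others are named where their value without a library is given, or left to the counts. One selected gene is not reported here. Log2 CPM for correlations used a prior count of 2.

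Alternatives were other scaling (DESeq2 size factors, library totals, ribosomal features left out), other filters (1 count; at least 10 counts in every library), DESeq2, limma-voom, a fit of only the groups compared, a replicate block, removal of medians of 20 Mb windows, a minimum fold change of 1.5 and leaving out each library. Replicate pairs differed by 3.01 to 11.2 times sampling noise, so none was taken for a duplicate deposit.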

Additional observations from a re-analysis of the deposited data

How the results depend on the processing

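The 18 fold changes of the 6 tested genes were recomputed under 20 alternatives each. Of 360 values, 349 kept their direction and side of the threshold, 3 lost the call, 6 gained it and 2 that had not passed changed sign. The 3 losses came with a minimum fold change of 1.5, where the number of genes of the system called in KD against WT was 0 in place of 2; requiring a larger change is built into that test. The gains were those of Angpt4 and Angptl4: Angpt4 in OE against KD had an adjusted p of 0.0482 with at least 10 counts in every library and 0.0284 without KD replicate 2. The sign changes were Angpt4 in KD (0.19 without KD replicate 2, with a range of -0.32 to 0.19 over the fits without 1 library) and Angpt2 in OE against KD (0.11 without KD replicate 3, range -0.56 to 0.11). Without 1 library at a time, the number of the 8 genes called was 2 to 2 in KD against WT, 3 to 4 in OE against WT, 2 to 3 in OE against KD and 3 to 4 among the 3 groups, and that of list genes in OE against KD was 58 to 65. With window medians removed, Itgb1 changed to 0.18 (OE against WT) and 0.063 (OE against KD), and Ets1 to 0.14 and 0.079; the cause was not tested.

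With the replicate block the number called was 2, 3 and 2 in the 3 comparisons, as without it. Replicate numbers did not pair the libraries: same-numbered libraries had correlations of -0.0421 to 0.049, and 0 of 9 pairs were over 0.1. The test among the 3 groups was not run with DESeq2, limma-voom, the block, window medians, the minimum fold or 2 groups alone. Depth limits Angpt1 and Tie1 (at most 9 counts in a library) and, at 10 to 54 counts, Angpt2, Angpt4 and Angptl4.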

Other observations

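Angptl7, a further angiopoietin-like gene, and Tal1, a blood and endothelial transcription factor, were singled out after their values were seen, since both are under 5 CPM in every group. Tal1 is on the list of factors reported at the promoters of Tek, Tie1 or angiopoietin genes. Angptl7 had 86 to 185 counts in WT, 16 to 21 in KD and 5 to 11 in OE, with log2 fold changes of -2.77 in KD and -4.10 in OE (adjusted p 5.32e-07 and 2.99e-09 by edgeR's quasi-likelihood test, Benjamini-Hochberg adjusted). Tal1 had 176 to 264 counts in WT, 1 to 6 in KD and 1 to 9 in OE, with log2 fold changes of -6.05 and -5.27 (adjusted p 7.12e-10 and 3.38e-10, edgeR). Both were lower in every KD and OE library than in every WT library, and in these 9 libraries they fell in both groups, as Angptl2 did.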
